A study of Homo sapiens with 6 samples.

Results

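Genes of the actin cytoskeleton and of serum response factor (SRF), numbering 10 in all, were followed through the mRNA tables of HCT116 cells: ACTB, ACTG1, SRF, VCL, TAGLN2, MYL9, TPM1, TPM4, FLNA and CNN2. They were the rows of the 2 deposited tables whose gene symbol, in upper case, was any of these names. The rule found all 10 genes of the 19871 symbols, and 81 of the 92866 transcripts. HCT116 is an established human colorectal cancer cell line. In all, 3 groups of 2 libraries each were sequenced from total RNA: NC, the negative control, GAS5, cells given a plasmid carrying the long non-coding RNA GAS5, and siYAP, cells given siRNA directed against YAP. What the NC cells received is not described in the labels beyond that name, and all 3 groups are listed there as siRNA. The tables hold 1 mean per group over its 2 libraries, so the spread between libraries cannot be computed, no difference given here was tested. The labels do not say whether the 2 libraries of a group came from separate cultures.

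Actin monomers assemble into filaments that crosslinkers, tropomyosins, myosin and adhesion proteins bind. Free actin monomers hold back the MRTF cofactors (MKL1, MKL2) of SRF. When monomers are used up by assembly, MRTF enters the nucleus and SRF, bound to a DNA element called the CArG box, drives actin and many genes of actin-binding proteins. Actin assembly and YAP are known to be linked in epithelial cells, because YAP responds to tension in the cytoskeleton and shares target genes with SRF.

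The genes lie on 9 chromosomes in the GENCODE 29 annotation of GRCh38. ACTB is at chr7:5527147-5563784 and ACTG1 at chr17:81509971-81523847, both on the minus strand. SRF is at chr6:43171299-43181507 and VCL at chr10:73995193-74121363, both on the plus strand. TAGLN2 is at chr1:159918107-159925732 (minus), MYL9 at chr20:36541484-36551447 (plus) and TPM1 at chr15:63042632-63071915 (plus). TPM4, at chr19:16067021-16103005, and CNN2, at chr19:1026581-1039068, share a chromosome and the plus strand, and FLNA is at chrX:154348524-154374638 (minus).

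The DNA element through which SRF acts was looked for in the reference sequence of the genes' start sites, since SRF binds DNA through it. RefSeq windows of 250 bases before to 50 bases after a start site (build GRCh38.p14) were at hand for 8 of the 10 genes, and not for ACTB and MYL9. The CArG box, a palindromic pattern of 10 bases searched on both strands, was present in 5 of these 8 genes, or 62.5%. Over all 27305 genes in the same table it was present in 438, or 1.60%. The genes had been chosen as SRF-linked, so the higher share is a description of that choice. The stretches around the boxes follow, written 5′ to 3′ on the strand of the gene, with each CArG box in capitals.
SRF (chr6:43171214-43171268, plus strand): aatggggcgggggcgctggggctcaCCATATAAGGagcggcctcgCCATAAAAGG
ACTG1 (chr17:81512859-81512918, minus strand): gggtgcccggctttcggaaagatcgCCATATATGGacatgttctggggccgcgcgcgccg
CNN2 (chr19:1026494-1026553, plus strand): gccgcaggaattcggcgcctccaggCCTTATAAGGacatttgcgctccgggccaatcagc
TPM4 (chr19:16067340-16067399, plus strand): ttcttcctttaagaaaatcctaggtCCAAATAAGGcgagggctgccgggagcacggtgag
FLNA (chrX:154374694-154374753, minus strand): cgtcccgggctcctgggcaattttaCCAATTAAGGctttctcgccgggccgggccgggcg

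SRF itself carried 2 boxes, whose first bases lie at -30 and -10 from its start site, the base just before the start being -1. The boxes of ACTG1 and FLNA both begin at -94, that of CNN2 at -89 and that of TPM4 at -173. No CArG box was found in the windows of VCL, TAGLN2 and TPM1, which says only that the pattern is not in these windows. The letters CATTCC or their complement GGAATG, the core bound by the TEAD partners of YAP, were found in 1 of the 8 genes (12.5%), VCL, beginning at -171, against 16.7% of all genes in the table. A match to either pattern is a description of the letters and not of binding.

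**Figure D1:**
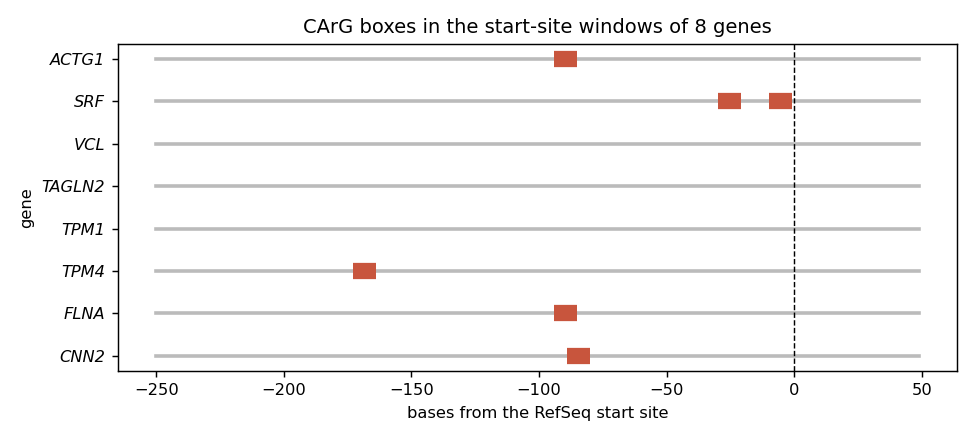
Position of each CArG box (red) in the window of 250 bases before to 50 bases after a RefSeq start site (grey line, dashed line at the start), for the 8 genes with a window; the x axis is in bases from the start site. SRF shows 2 boxes next to its start, ACTG1, FLNA and CNN2 show 1 each, at -94, -94 and -89, TPM4 shows 1 at -173, and VCL, TAGLN2 and TPM1 show none.

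The start sites behind these windows carried unequal parts of the counts. Annotated transcripts that begin within 100 bases of the RefSeq start held 100% of the counts of SRF and 99.99% of those of ACTG1 in each group. These starts are not all the same base. ACTG1-201, with 60.2% of the ACTG1 counts in NC, has its annotated first base at 81512891, and the RefSeq start is at 81512799. The annotated first base of ACTG1-201 thus lies within the CArG box. For CNN2 they held 94.6%, 96.3% and 96.3% in NC, GAS5 and siYAP. For TPM4 only the long form TPM4-202 begins there, with 30.9% of the counts of the annotated transcripts in NC (95% Wilson interval 29.9 to 31.9), 28.96% in GAS5 (27.8 to 30.2) and 38.3% in siYAP (37.0 to 39.6). For FLNA the 3 transcripts that begin there held 8.93%, 9.25% and 7.41%, while FLNA-201 and FLNA-203, which begin further downstream, held 87.5%, 86.8% and 88.7%. These intervals, like all others below, cover counting error only.

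The estimated counts summed, as group means, to 27206123 for NC, 25521577 for GAS5 and 26298036 for siYAP, and the 10 genes together took 1.17%, 1.35% and 1.19% of it. YAP1, the gene targeted in siYAP, had mean counts of 3480, 2679 and 1444, a log2 change of -1.18 in siYAP and of -0.26 in GAS5. Of 10 colon epithelial markers, 8 were above 0 in NC and GAS5 and 9 in siYAP, with a summed level of 3279, 3730 and 4329 FPKM (fragments scaled by transcript length and library size). CDX1 was at 0 in every group. Of 11 fibroblast and smooth muscle markers, 7 or 8 were above 0, with a summed level of 23.4, 31.3 and 26.4 FPKM, and DCN and LUM were at 0 in every group. The part of these markers in the results below was not tested.

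All 10 genes were expressed in all 3 groups, and the highest exceeded the lowest by more than 2 orders of magnitude. In RNA of whole cultures, fewer cells expressing a gene and less RNA per cell cannot be told apart. Levels per length are given as FPKM summed over the transcripts of a gene. The cytoplasmic actins stood highest. ACTG1, which encodes gamma-actin, had 4325, 5002 and 4426 FPKM in NC, GAS5 and siYAP, and was the 6th highest of the 19871 symbols in NC. ACTB, which encodes beta-actin, had 1482, 2080 and 1580 FPKM and was the 45th highest in NC. Of the ACTG1 level in NC, 2154 FPKM came from the short transcript ACTG1-202 and 1563 FPKM from ACTG1-201, while ACTB-201 had 1412 FPKM. Summed levels of overlapping transcripts depend on how shared reads are divided. FLNA, the filamin that crosslinks actin filaments, followed with 392, 370 and 385 FPKM.

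The remaining genes lay well below the actins. CNN2, a calponin that binds actin and myosin, had 154, 148 and 131 FPKM in NC, GAS5 and siYAP, and TAGLN2, the transgelin of non-muscle cells, had 122, 127 and 130 FPKM. The tropomyosin genes TPM1 and TPM4, whose products coil along the filament, had 87.8 and 76.2 FPKM in NC, 82.6 and 71.3 FPKM in GAS5, and 68.3 and 71.5 FPKM in siYAP. VCL, which encodes vinculin and its muscle-type longer form metavinculin, had 46.5, 41.6 and 43.2 FPKM. MYL9, a regulatory light chain of myosin II, had 30.9, 32.9 and 27.2 FPKM. SRF, the transcription factor, was the lowest of the 10 as summed by symbol, at 15.2, 16.6 and 18.6 FPKM. Most of the TPM1 level came from assembled transcripts described below. The annotated TPM1 transcripts alone had 9.2, 8.7 and 8.5 FPKM in NC, GAS5 and siYAP, below SRF. With the assembled tpm1 transcripts counted under it, TPM4 had 154.8, 145.3 and 131.3 FPKM. As summed by symbol, the order was the same in NC and GAS5, and in siYAP it differed by the exchange of TPM1 and TPM4. With 1 mean per group, whether neighbours in this order differ beyond the spread between libraries cannot be told.

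**Figure D2:**
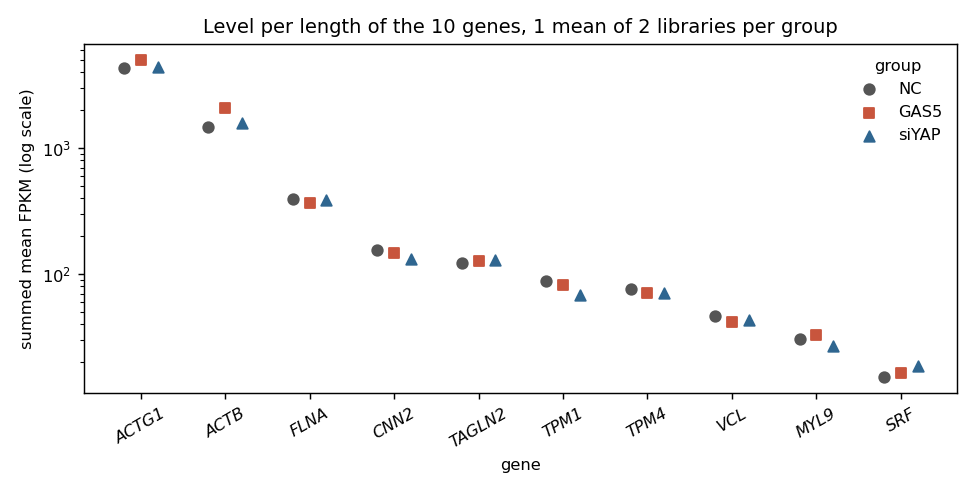
Summed mean FPKM of each of the 10 genes (log scale on the y axis) in NC (circles), GAS5 (squares) and siYAP (triangles), each point 1 mean of 2 libraries. ACTG1 and ACTB lie above 1400 FPKM in every group and SRF below 20 FPKM; ACTB shows the widest gap between groups.

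In GAS5 against NC the question was whether cells given the GAS5 plasmid differed in these genes. ACTB stood out with a mean count of 76099.5 in NC and 100906 in GAS5, which after scaling to equal library size is a log2 change of 0.53 (95% counting interval 0.52 to 0.54), or 1.44-fold. It was the only 1 of the 10 genes past a log2 change of 0.5 upward, and none was past 0.5 downward. Over all 13382 genes compared, 6.34% were higher and 5.27% lower by that size. ACTB lay above 94.2% of all genes compared, and its value was at the edge of the size used: it was 0.499 with total counts and 0.49 from mean FPKM, which leaves 0 of 10 genes past 0.5.

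The paralogue ACTG1 was higher by less. Its mean count was 143602 in NC and 154667 in GAS5, a log2 change of 0.23 (0.22 to 0.23). ACTB therefore made up 34.6% of the summed counts of these 2 actin genes in NC (34.5 to 34.8) and 39.5% in GAS5 (39.3 to 39.6), against 35.6% in siYAP (35.5 to 35.8). Together the pair had mean counts of 219702 in NC and 255572 in GAS5, a log2 change of 0.34. Almost all of the ACTB counts came from ACTB-201, which held 98.5% in NC and 98.7% in GAS5. Of the stretches of 50 bases in that transcript, 89.7% occurred in no other annotated gene, and the pseudogene ACTBP2 shared the most with 5.07%. For ACTG1-201 the share found in no other gene was 96.0%.

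The other 8 genes in GAS5 lay between -0.13 and 0.15 on the log2 scale. SRF had a mean count of 1776.5 in NC and 1816.5 in GAS5, with a log2 change of 0.15 (0.08 to 0.22). TAGLN2 had 4179 and 4211, with a log2 change of 0.13 (0.09 to 0.17). MYL9 had 1620.5 and 1632, also with a log2 change of 0.13 (0.06 to 0.20). These 3 genes were thus a little higher after scaling, while VCL was a little lower, with mean counts of 7482 and 6316 and a log2 change of -0.13 (-0.16 to -0.09). FLNA had 65942.5 and 57396, with a log2 change of -0.08 (-0.09 to -0.07). TPM1 was at -0.05, TPM4 at -0.03 and CNN2 at 0.01 on the log2 scale. The interval of CNN2 (-0.02 to 0.04) covers 0, and its direction turned with total counts and with mean FPKM. In all, 6 of 10 genes were above 0, against 50.3% of all genes compared. The median log2 change of the 10 genes was 0.07 against 0.0018 over all genes compared, whose median absolute log2 change was 0.18.

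**Figure D3:**
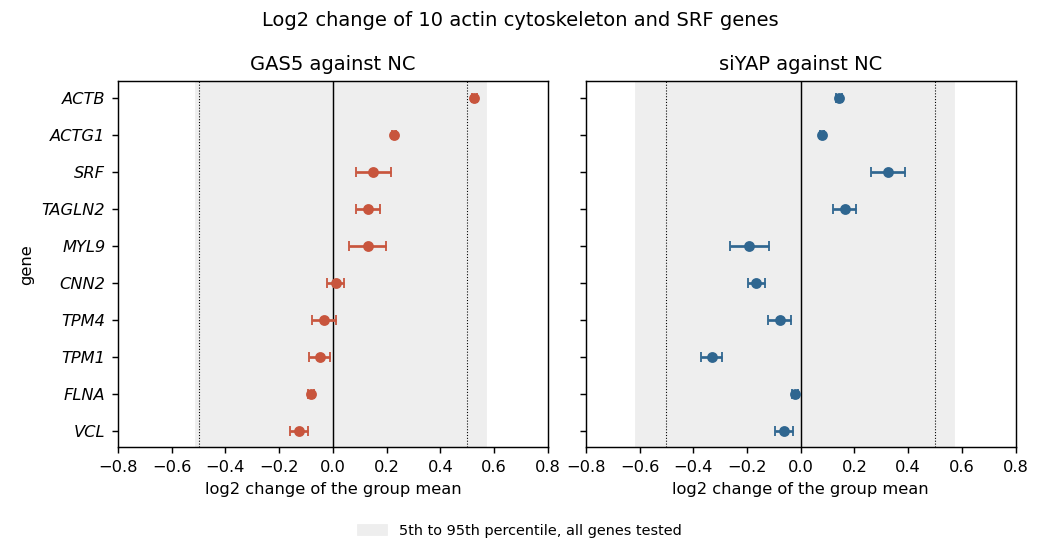
Log2 change of the group mean against NC for the 10 genes in GAS5 (left) and siYAP (right), with 95% counting intervals as bars, dotted lines at -0.5 and 0.5, and the range from the 5th to the 95th percentile of all genes compared in grey. In GAS5 only ACTB reaches 0.5, with the main scaling and not with total counts or mean FPKM, and in siYAP SRF at 0.32 and TPM1 at -0.33 lie farthest from 0.

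In siYAP against NC the question was whether cells with less YAP mRNA differed in the same genes. This comparison uses the same NC mean as the first, so an excess or deficit in NC appears in both. None of the 10 genes was past a log2 change of 0.5 in either direction, against 6.86% of all 13315 genes compared that were higher and 7.89% that were lower by that size. When the most abundant transcript of each gene stood in for its sum, 1 gene was past it, TPM4 at -0.61. In siYAP 4 genes were above 0, and the median log2 change was -0.04. The range of the 10 genes, from -0.33 to 0.32, lay inside the range from the 5th to the 95th percentile of all genes (-0.61 to 0.57).

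SRF was the highest of the 10 in siYAP, with a mean count of 2098 against 1776.5 in NC and a log2 change of 0.32 (0.26 to 0.39), above 84.4% of all genes compared. Its log2 change was between 0.29 and 0.34 under every alternative computed. TAGLN2 had a mean count of 4411.5 and a log2 change of 0.16 (0.12 to 0.21). ACTB had 79152 and a log2 change of 0.14 (0.13 to 0.15), and ACTG1 had 142985 and a log2 change of 0.08 (0.07 to 0.09). The actins thus differed less from NC in siYAP than in GAS5, and SRF differed more in siYAP. Neither contrast between the 2 treatments was tested.

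The other 6 genes were below 0 in siYAP. TPM1, as summed by symbol, had a mean count of 5659 in NC and 4238 in siYAP, a log2 change of -0.33 (-0.37 to -0.29), which rests on assembled transcripts described below. MYL9 had 1620.5 and 1338, a log2 change of -0.19 (-0.27 to -0.12), and CNN2 had 8393 and 7053, a log2 change of -0.17 (-0.20 to -0.13). These 3 genes were the lowest of the 10 as summed by symbol, whereas TPM4 was the lowest, at -0.22, with the assembled tpm1 transcripts counted under it. TPM4 was at -0.08, VCL at -0.06 and FLNA at -0.02 on the log2 scale, and the value of FLNA turned to 0.14 when only its most abundant transcript was used.

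The log2 changes of genes with and without a CArG box overlapped. As sums over all transcripts, the 5 genes with a box had a median log2 change of 0.01 in GAS5, between -0.08 and 0.23. In siYAP their median was -0.02, between -0.17 and 0.32. In NC the start beside the box held only 8.93% of the annotated counts of FLNA and 30.9% of those of TPM4. FLNA-206, which begins there, was at -0.06 in GAS5 and -0.27 in siYAP, and TPM4-202 at -0.48 and -0.14. Medians over only the transcripts that begin beside a box were not computed. The 3 genes with a window and no box had medians of -0.05 and -0.06. All 160 genes with a box that were compared in GAS5 had a median log2 change of -0.01, and all 157 compared in siYAP had a median of 0.02.

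The value of TPM1 depends on which transcripts are counted as TPM1. Under this symbol, 3 assembled transcripts, written tpm1 in lower case with identifiers that are not from Ensembl, held 93.0% of the counts of the symbol in NC and GAS5 and 91.6% in siYAP. Nearly all of these came from TCONS_00068982, with mean counts of 5248, 4678 and 3880 and a log2 change of -0.05 in GAS5 and -0.35 in siYAP. The 19 Ensembl transcripts of TPM1 together had mean counts of only 396.5, 353 and 354.5 in NC, GAS5 and siYAP. Their log2 change was -0.05 in GAS5 (-0.20 to 0.10) and -0.08 in siYAP (-0.22 to 0.07), both with intervals that cover 0. Within them the short form TPM1-208, of 248 residues, held the most, with 368, 327 and 333 mean counts.

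Other values bear on where these assembled transcripts lie, which the tables do not state. A mean over 2 libraries of whole reads is a multiple of 0.5, and 87.5% of the 11670 genes with at least 50 counts in every group met this within 0.03 in every group. The sums of TPM1 and of TPM4 by symbol met it in 0 of 3 groups. The Ensembl transcripts of TPM1 alone met it in 3 of 3, and so did TPM4 summed with the assembled tpm1 transcripts. Neighbours were taken as transcripts of other symbols, with a known chromosome, whose identifier numbers lie within 100. The neighbours of these 3 assembled transcripts were on chromosome 19 in 19 of 19, 20 of 20 and 21 of 21 cases. Other transcripts listed as tpm1 were not among these neighbours. For the assembled TPM4 transcripts TCONS_00068983 and TCONS_00068987 it was 18 of 21 and 19 of 22. TPM4 is on chromosome 19 and TPM1 on chromosome 15.

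Both ways of summing are therefore given for the tropomyosins. By symbol, TPM4 had mean counts of 4431, 3990 and 3956, with log2 changes of -0.03 (-0.08 to 0.01) and -0.08 (-0.12 to -0.04). With the assembled tpm1 transcripts added, TPM4 had 9694, 8673 and 7839.5, with log2 changes of -0.04 (-0.07 to -0.01) and -0.22 (-0.25 to -0.19). With its Ensembl transcripts only, it had log2 changes of -0.39 and -0.45. The size of the difference in TPM4 is thus set by the transcripts that are counted, while its direction stayed below 0.

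Single TPM4 transcripts differed from NC in opposite directions. The short form TPM4-201, of 248 residues, had mean counts of 2689, 1953 and 1659, with log2 changes of -0.34 (-0.40 to -0.28) and -0.61 (-0.67 to -0.55). The long form TPM4-202, of 284 residues, had 1212, 800 and 1034, with log2 changes of -0.48 (-0.57 to -0.39) and -0.14 (-0.23 to -0.06). The assembled TPM4 transcript TCONS_00068983 was higher in both groups, with 513, 1216 and 1258 and log2 changes of 1.36 (1.26 to 1.47) and 1.38 (1.28 to 1.48). Its share of the TPM4 counts was 11.6%, 30.5% and 31.8% in the same order. Counts of overlapping transcripts are estimates that depend on how shared reads are divided, and 76.9% of the 50-base stretches of TPM4-201 occurred in no other gene.

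**Figure D4:**
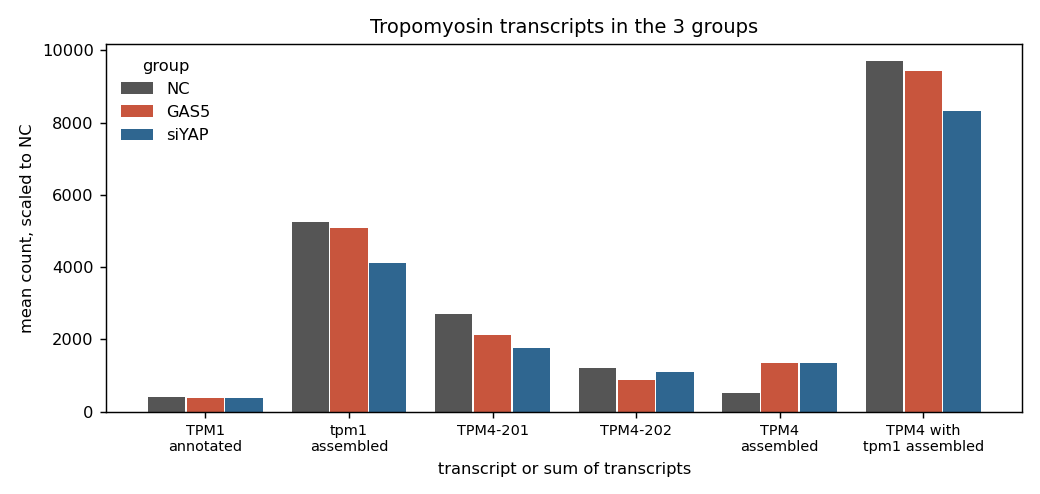
Mean counts of tropomyosin transcripts or sums of transcripts in NC, GAS5 and siYAP, scaled to the library size of NC (bars from 0, 1 mean of 2 libraries each, no error bars). The annotated TPM1 transcripts are far below the assembled ones listed as tpm1, TPM4-201 is highest in NC, and the assembled TPM4 transcripts are lowest in NC.

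Across the 10 genes, 18 of the 81 transcripts were at 0 in every group and 42 had counts enough to be compared in GAS5 and 41 in siYAP. By a log2 change of 1, 2 were higher and 3 lower in GAS5, against 10.9% and 9.51% of all transcripts compared. In siYAP 5 were higher and 4 lower, against 9.21% and 11.9%. Of these transcripts, 5 had at least 50 mean counts in a group and are described, TCONS_00068983 of TPM4, FLNA-202, ACTG1-206, ACTG1-208 and TCONS_00135091 of MYL9, and the others had fewer counts.

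The 3 largest transcripts of ACTG1 shared its difference in GAS5. ACTG1-201, of 375 residues, held 60.2% of the counts in NC with a log2 change of 0.18 in GAS5 and 0.05 in siYAP, ACTG1-202, of 133 residues, held 19.5% with 0.26 and 0.06, and ACTG1-216, again of 375 residues, held 19.5% with 0.31 and 0.16. A pair of minor transcripts of 375 residues stood higher in siYAP. ACTG1-206 had mean counts of 299, 430 and 631, with log2 changes of 0.64 in GAS5 and 1.16 in siYAP (1.03 to 1.31). ACTG1-208 had 20.6, 29.8 and 52.3, with 0.61 and 1.34 (0.91 to 1.95). A further minor transcript of 375 residues, ACTG1-210, stood lower in siYAP. It had 218, 189 and 149, with -0.09 and -0.46 (-0.67 to -0.25), and was named after its values were seen.

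The vinculin gene showed a small shift between its forms. VCL-201, of 1134 residues and the length of metavinculin, held 64.6% of the counts in NC (63.8 to 65.3), 63.4% in GAS5 (62.5 to 64.2) and 61.1% in siYAP (60.3 to 61.9). VCL-202, of 1066 residues, held the rest, 35.4%, 36.6% and 38.9%. On the log2 scale VCL-201 was at -0.15 in GAS5 and -0.14 in siYAP, and VCL-202 at -0.08 and 0.07. These 2 transcripts overlap and also end at different bases, 74120160 and 74121363 on chromosome 10. Their shares are estimates that depend on how shared reads are divided, which the intervals do not cover.

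Most counts of FLNA came from FLNA-203 and FLNA-201. FLNA-203, of 2620 residues, held 48.9%, 49.8% and 54.7% of the counts, with log2 changes of -0.06 in GAS5 and 0.14 in siYAP. FLNA-201, of 2639 residues, held 35.7%, 31.8% and 31.2%, with -0.25 and -0.22. FLNA-202, of 2647 residues, had mean counts of 52.6 in NC, 0.13 in GAS5 and 0.63 in siYAP, and is under 0.1% of the gene. Among the smaller transcripts, ENST00000344736, which is not in GENCODE 29, had 2212, 3467 and 1964, with log2 changes of 0.77 in GAS5 (0.71 to 0.82) and -0.09 in siYAP, and FLNA-206 had 5628, 4988 and 4390, with -0.06 and -0.27. Both were named after their values were seen.

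In the remaining genes the main transcript followed the gene. CNN2-201, of 309 residues, held 85.7%, 88.3% and 85.1% of the counts, with log2 changes of 0.05 and -0.17. TAGLN2-203, of 199 residues, held 76.3%, 79.0% and 78.1%, with 0.18 and 0.20, and TAGLN2-201, which starts further downstream, held 23.4%, 20.7% and 21.0%, with -0.05 and 0.01. Of the 50-base stretches of TAGLN2-203, 90.7% occurred in no other gene, and the pseudogene TAGLN2P1 shared the rest. SRF had 1 transcript, SRF-201, of 508 residues.

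MYL9 held its counts in MYL9-201, of 172 residues, with 66.0%, 69.1% and 67.6% in NC, GAS5 and siYAP, and in MYL9-202, of 118 residues, with 28.97%, 28.1% and 30.9%. The former had log2 changes of 0.19 and -0.16 and the latter of 0.09 and -0.10. An assembled transcript listed as MYL9, TCONS_00135091, had mean counts of 81, 45.5 and 19.5, with log2 changes of -0.69 in GAS5 (-1.08 to -0.34) and -1.87 in siYAP (-2.47 to -1.47). MYL9 is on chromosome 20, and the 15 neighbours of this transcript by identifier number with a known chromosome were all on chromosome 8. Without it, MYL9 had mean counts of 1539.5, 1586.5 and 1318.5, with log2 changes of 0.16 in GAS5 (0.09 to 0.23) and -0.14 in siYAP (-0.21 to -0.06).

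Of 11 cofactors and regulators of SRF, 8 had counts enough to be compared, and they lay mostly below 0. In GAS5 none was past 0.5 in either direction, against 6.34% of all genes higher and 5.27% lower. The median log2 change was -0.17. The MRTF cofactors MKL1 and MKL2 were at -0.10 and -0.24, the ternary complex factors ELK1, ELK3 and ELK4 at -0.02, -0.30 and -0.33, SCAI, an inhibitor of MRTF, at -0.36, and the actin-binding PHACTR2 and PHACTR4 at 0.03 and -0.07. In siYAP 0 were higher and 1 was lower by 0.5, against 6.86% and 7.89% of all genes. This was MKL2, with mean counts of 2700.5 in NC, 2107 in GAS5 and 1605.5 in siYAP. Its log2 change in siYAP was -0.66 (-0.73 to -0.60). The others in siYAP were MKL1 at 0.15, ELK1 at -0.23, ELK3 at 0.21, ELK4 at -0.0016, SCAI at -0.38, PHACTR2 at -0.02 and PHACTR4 at -0.23, with a median of -0.12 over the 8. ABRA was at 0 in every group, and MYOCD and PHACTR1 had at most 1 mean count.

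Of 32 other SRF-linked cytoskeletal genes, 28 were compared in GAS5, with 3 higher and 1 lower by 0.5 (6.34% and 5.27% over all genes) and a median log2 change of -0.0008. In siYAP 26 were compared, with 1 higher and 1 lower (6.86% and 7.89% over all genes) and a median of 0.06. ACTA2, the actin of smooth muscle, was higher in both groups, with mean counts of 210.5, 321.5 and 397 and log2 changes of 0.72 (0.55 to 0.91) and 0.99 (0.83 to 1.17). ACTA2, TAGLN, CNN1 and MYH11 are also on the list of fibroblast and smooth muscle markers. Of the markers on that list, 6 were compared in GAS5, 4 above 0 and 2 below, with a median log2 change of 0.56. In siYAP 5 were compared, 3 above 0 and 2 below, with a median of 0.58. COL1A1, a collagen gene of that list, was at 0.67 and 0.60 in GAS5 and siYAP, and DES, the desmin gene, at -0.68 and 0.58. PDGFRB, with at most 17 mean counts, was at -0.90 and -0.47, and TAGLN at 0.45 and -0.42. PDGFRB and TAGLN were named after their values were seen. Of the 10 colon epithelial markers, 7 were compared in each case. In GAS5 5 of them were above 0 and 2 below, with a median log2 change of 0.15. In siYAP 6 were above 0 and 1 below, with a median of 0.42. The part of either set of markers in the value of ACTA2 was not tested. In GAS5 the LIM protein gene FHL1 was at -0.62, and in siYAP LIMA1, an actin crosslinker, was at -0.62 and TGFB1I1, an adhesion adaptor, at 0.44. ACTA1 and CNN1, the other 2 genes that were higher in GAS5, had at most 21.5 mean counts in any group and were named after their values were seen.

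Of 39 genes of actin filament assembly and turnover, 38 were compared in each case. In GAS5 1 was higher and 0 lower by 0.5, against 6.34% and 5.27% of all genes, with a median log2 change of 0.07. This was ARPC4, a subunit of the Arp2/3 complex that nucleates branched filaments, at 0.62, followed by TMSB4X, which binds actin monomers, at -0.37 and LCP1, a filament bundler, at 0.36, which rests on mean counts of 49.5 and 59 and has an interval that covers 0 (-0.01 to 0.76). In siYAP 2 were higher and 3 lower, against 6.86% and 7.89% of all genes, with a median of 0.0009. ARPC5, another Arp2/3 subunit, was at -0.89 with mean counts of 1295.5 in NC and 656.5 in siYAP, the filament-severing gelsolin gene GSN at 0.73 with 4941 and 7704, and the capping protein gene CAPZA1 at -0.61 with 7572 and 4689.

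The list of immediate-early genes held FOS, FOSB, JUNB, EGR1, EGR2, EGR3, IER2, IER3, MCL1, CYR61 and CTGF, of which the last 2 are also known as YAP target genes. It had the highest median of the cytoskeletal and SRF-linked lists in both comparisons. In GAS5 7 of 11 were higher by 0.5 and 0 lower, against 6.34% and 5.27% of all genes, with a median log2 change of 1.04. CYR61, at 1.09, and CTGF, at 0.72, were among the 7. EGR2 was at 1.86, EGR1 at 1.61 and EGR3 at 1.58, all of them zinc finger transcription factors. The value of EGR2 rests on mean counts of only 25.5 in NC and 90 in GAS5 (1.49 to 2.38). That of EGR3 rests on 36.5 and 104 (1.25 to 2.01), while EGR1 had 1004 and 2831.5 (1.54 to 1.69). In siYAP 6 of 11 were higher and 0 lower, against 6.86% and 7.89% of all genes, with a median of 0.50, and EGR3 was at 1.39, EGR1 at 0.71 and FOSB, a partner in AP-1, at 0.51. EGR2 was at 0.85 in siYAP, with mean counts of only 25.5 in NC and 45 in siYAP. CYR61 and CTGF were at 0.29 (0.17 to 0.41) and 0.16 (-0.15 to 0.48) in siYAP, short of 0.5. FOS, IER2 and FOSB lay at the edge of the size used in siYAP, at 0.504, 0.507 and 0.508. With total counts 3 in place of 6 were past 0.5 in siYAP, and with mean FPKM 4. The median in siYAP fell to 0.39 with Ensembl transcripts only and with the most abundant transcript. It was also 0.39 with transcripts of at least 10 mean counts in every group. SRF itself, at 0.15 and 0.32, lay below the median of the list in each comparison, and so did ACTB, at 0.53 and 0.14.

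**Figure D5:**
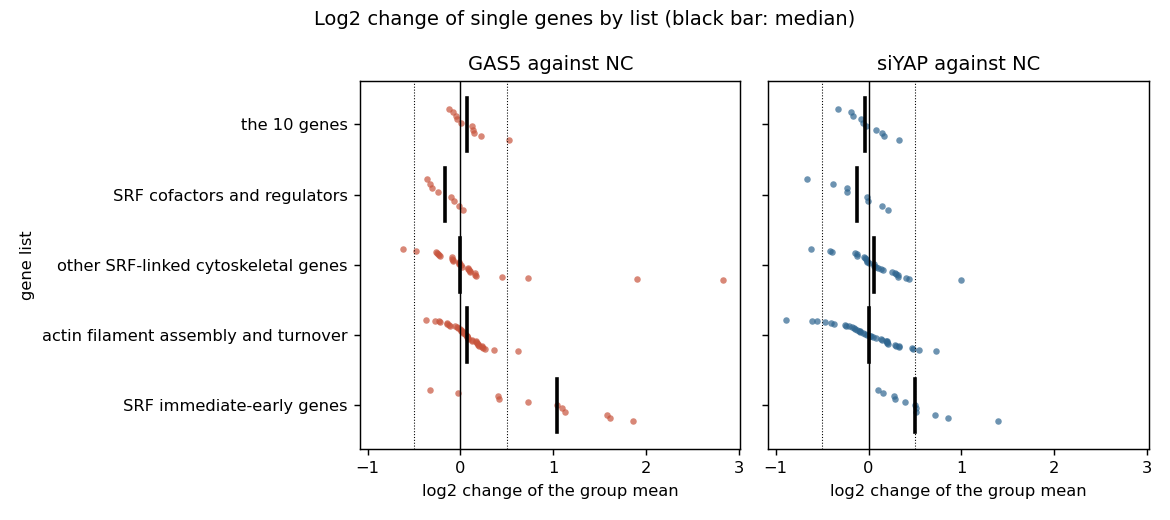
Log2 change of the group mean against NC of each gene with counts enough to be compared (points) by gene list, for GAS5 (left) and siYAP (right), with the list's median as a black bar and dotted lines at -0.5 and 0.5. The medians of the 10 genes lie at 0.07 and -0.04, close to 0 like those of the other cytoskeletal lists, and the immediate-early genes lie at 1.04 and 0.50.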

How the data were processed

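Strand-specific libraries of HCT116 RNA were sequenced on an Illumina HiSeq, and the submitters' processing notes name TopHat2 2.1.1. The counting tool, genome build and annotation are not given in the sources used here. The authors deposited 1 table per treatment, averaged over the 2 libraries of a group. The deposited values are expected counts (estimated counts per transcript, without further normalization) and FPKM (with 0 written as 0.001). The tables also hold the authors' log2 ratios, p-values, FDR and calls per transcript, which were not used. Long non-coding transcripts, GAS5 among them, were not analysed here.

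Transcripts were joined by identifier, and expected counts were summed by the upper-case symbol of the siYAP table. Genes passing edgeR 4.0.16 filterByExpr (minimum count 10, counts rounded) were scaled by TMM for each pair of groups. The log2 change used a prior count of 2. Since the spread between libraries is unknown, genes were described by size: a log2 change of 0.5, and 1 for transcripts. The 95% Wilson intervals were taken on the counts behind each mean and cover counting error only. Because there are no replicate columns, the tests that had been planned for counts per library could not be made. The steps were tested on simulated data. Coordinates, lengths and shared 50-base stretches came from GENCODE 29 (GRCh38), in which 69 of 71 Ensembl transcripts were found, and start-site windows from RefSeq (GRCh38.p14). Versions were Python 3.11.15, R 4.3.3 and DESeq2 1.42.0. DESeq2 size factors served as an alternative scaling.

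All 10 genes were named, as were their transcripts with 10% or more of a gene's counts in a group, or past a log2 change of 1 with at least 50 mean counts. The 3 genes of each other list farthest from 0 with at least 50 mean counts, all SRF cofactors with such counts, and YAP1 were named too. Of what this rule names, 1 list and 1 gene of another list are not reported here. The genes and the lists were chosen with earlier results of these data known.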

Additional observations from a re-analysis of the deposited data

How the results depend on the processing

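No paired analysis was possible because no column holds a single library. For the same reason the fit with a replicate block, leaving out a library, and the DESeq2 test were not run. Of 302 values recomputed under an alternative, 255 moved by less than the counting error or, for counts, stayed within 1.5 times. The other 47 moved by more. Of all these, 0 turned the direction of a gene past 0.5, which could be counted only for ACTB in GAS5. Below that size, the direction turned for CNN2 in GAS5 with total counts and mean FPKM. It also turned for FLNA in siYAP with the most abundant transcript. The number of genes past 0.5 in GAS5 became 0 with total counts and 0 with mean FPKM, where ACTB was at 0.499 and 0.49. In siYAP it became 1 with the most abundant transcript of each gene, which for TPM4 is TPM4-201 at -0.61. The median of the 10 genes in GAS5 was 0.0011 from mean FPKM, and in siYAP it was -0.079 with total counts. The number of transcripts past the size used in GAS5 was 13 at a log2 change of 0.5 and 5 at 1. Counting the assembled tpm1 transcripts with TPM4, an alternative chosen after seeing the data, put TPM1 at -0.08 and TPM4 at -0.22 in siYAP. In GAS5 the 95% counting intervals reached from 0.0073 to either side for ACTG1 to 0.07 for MYL9. The spread between libraries is unknown.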
